A study of Mus musculus with 4 samples.

Results

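H3K9me3, the trimethylation of lysine 9 on histone H3, was mapped in muscle stem cells of the mouse, which were sorted with magnetic beads, cultured, and digested with micrococcal nuclease before ChIP-seq. Described here are the peaks on the unplaced and unlocalised scaffolds of the mouse assembly mm10, chosen by name as every peak whose contig was not one of chromosomes 1 to 19, X or Y or the mitochondrial chromosome. There were 340 such peaks of 219552 in the 2 deposited lists together. Of these, 185 of 113688 belonged to the list from cells given 4-hydroxytamoxifen, which induces the deletion of Setdb1 (the deleted list), and 155 of 105864 to the list from cells given ethanol (the control list). Both cultures were kept in their agent for 72 h before the immunoprecipitation. Cells of both cultures carried loxP-flanked Setdb1 and a tamoxifen-inducible Cre recombinase driven by Pax7. The genotype was labelled Setdb1lox/lox;Pax7GakaCreERT3 for the 4-hydroxytamoxifen sample and Setdb1lox/lox;Pax7GakaCreERT2 for the ethanol sample. The last digit differs in each of the 4 samples' labels, inputs included, so it is not read here as a difference in driver. Each condition is represented by 1 list, and the labels give 1 H3K9me3 library for each, though whether other libraries were pooled into a list is not stated. Differences therefore have no replicate check and were not tested. How much of Setdb1 was removed is not measured by these lists, and sequencing depth is unknown.

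Scaffolds are assembled pieces of a genome that could not be given a place. An unlocalised scaffold is assigned to a chromosome but not to a position on it, and an unplaced one has no chromosome. They are often rich in satellite repeats and recently duplicated sequence, which cannot be assembled uniquely and on which short reads may align to several copies. H3K9me3 is the mark of constitutive heterochromatin and is bound by HP1 proteins. SETDB1 is the H3K9 methyltransferase best known for silencing endogenous retroviruses through KRAB zinc finger proteins and TRIM28, while SUV39H1 and SUV39H2 place the mark on pericentromeric satellites. No scaffold sequence was used here, so the repeats under these peaks were not analysed.

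The scaffold peaks held more of the genome's marked length than their number implies. As a group they were wider than peaks elsewhere, with a higher median strength, but control peaks on unlocalised scaffolds were narrower. The summed length of scaffold peaks was 377 kb for the deleted list, against 305 kb for the control list, a deleted-to-control ratio of 1.23. On the main chromosomes together this ratio was 1.003. Single chromosomes ran from 0.504 on chromosome 6 to 2.26 on chromosome X, with 1.23 on chromosome 7. Scaffold peaks were 0.163% of the deleted list's peaks and 0.281% of its covered bases, and 0.146% of the control list's peaks and 0.228% of its bases. Median width was 1232 bp in the deleted list and 1129 bp in the control list, against 854 bp and 904 bp for peaks on the main chromosomes. The medians were 1792 bp and 1534 bp on unplaced scaffolds, and 887 bp and 606 bp on unlocalised ones. Peaks of 5 kb or wider made up 18 of 185 scaffold peaks in the deleted list, where 1.25% of main-chromosome peaks were as wide, and 15 of 155 in the control list, against 1.75%. The widest lay on JH584304.1, at 17.3 kb from 19753 to 37084 in the deleted list and at 15.1 kb from 338 to 15470 in the control list.

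Most of the strongest peaks of each list were on scaffolds. Strength is given here by the authors' −log10 q, the confidence their peak caller put on a peak. Its median was 2.11 for scaffold peaks of the deleted list and 2.22 for those of the control list, where main-chromosome peaks had 1.48 and 1.60. Unplaced scaffolds had medians of 3.41 and 2.69, and unlocalised ones 1.64 and 1.91. A −log10 q of 10 or more was reached by 59 deleted-list peaks (0.0519% of that list) and 51 control peaks (0.0482%), a limit chosen after the values were seen. Of these, 33 of 59 deleted-list peaks (55.9%, Wilson interval 43.3 to 67.8%) and 27 of 51 control peaks (52.9%, 39.5 to 65.9%) were on scaffolds. Leaving out JH584304.1, which held 11 and 10 of them, the shares were 45.8% of 48 and 41.5% of 41. The 26 deleted-list and 24 control peaks of that strength on the main chromosomes were 0.0229% and 0.0227% of the peaks there, against 17.8% and 17.4% of scaffold peaks. Of those main-chromosome peaks, 7 and 8 began within the first 3.2 Mb of their chromosome. The share of all main-chromosome peaks that begin there was not counted, so whether this is many cannot be told.

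The median fold enrichment of strong scaffold peaks was close to that of other peaks. The authors' fold, a linear ratio within a list, had a median of 2.79 in the 33 strong scaffold peaks of the deleted list and 2.71 in the 27 of the control list. All scaffold peaks had medians of 2.64 and 2.56, and main-chromosome peaks 2.59 and 2.57. Strong main-chromosome peaks had medians of 2.96 in the deleted list and 2.66 in the control list. Their highest folds were 7.87 and 10.1, against 4.23 and 4.58 for strong scaffold peaks. On GL456389.1 a peak from 10089 to 10779 in the deleted list had a −log10 q of 89.7 at a fold of 1.49, and one from 10037 to 10685 in the control list had 58.6 at 1.39. A fold under 2 was found in 20 of 185 scaffold peaks of the deleted list, where the main-chromosome share was 0.0476%, and in 22 of 155 of the control list, against 0.0747%. Most of these low-fold peaks in each list were on JH584304.1 alone, where the median fold was 1.81 in the deleted list and 1.76 in the control list. Highest in fold after a pair on JH584304.1 described below were GL456392.1 from 203 to 2576 (3.77) and GL456211.1 from 119220 to 121864 (3.74) in the deleted list, and GL456211.1 from 129043 to 129449 (3.96) and GL456378.1 from 960 to 1326 (3.80) in the control list. The lists carry no read counts, so the number of reads behind a peak was not measured.

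**Figure D1:**
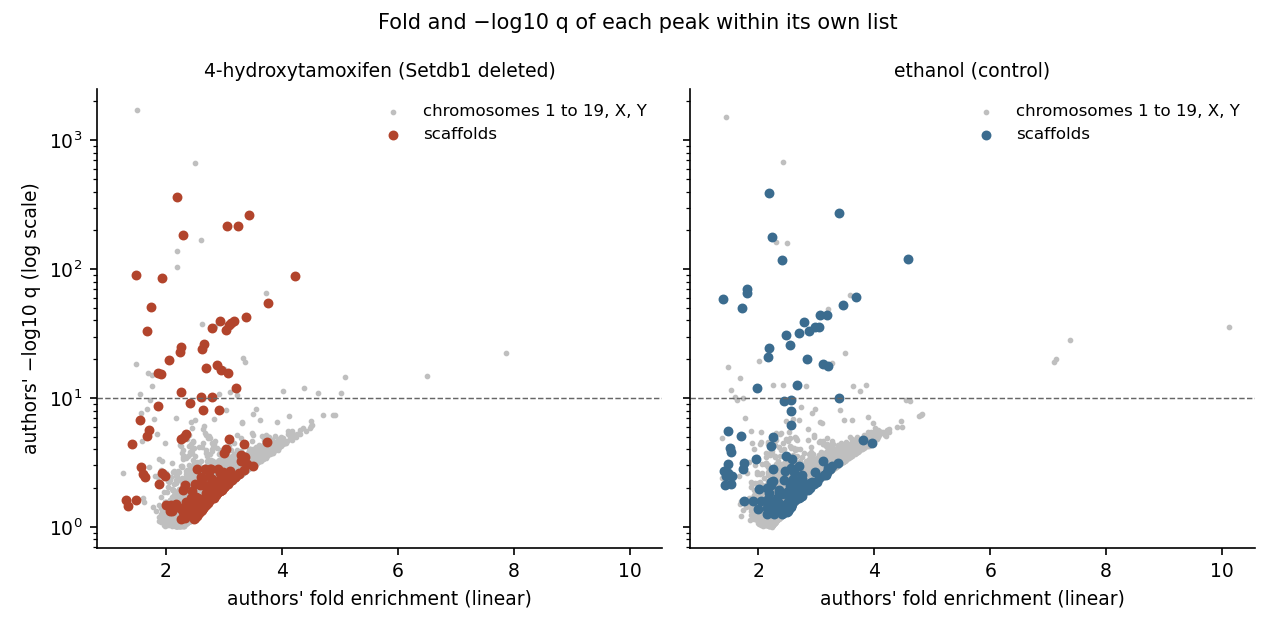
The authors' −log10 q (vertical, log scale) against their fold enrichment (horizontal, linear) for every peak, rounded to 2 decimals, the deleted list on the left and the control list on the right, with scaffold peaks in colour and main-chromosome peaks in grey. Above the dashed line at 10 lie 33 scaffold peaks in the deleted list and 27 in the control list, at folds no higher than 4.23 and 4.58.

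All strong scaffold peaks were on 7 unplaced scaffolds in both lists, and many had nearly the same limits in both. GL456392.1 carried the strongest one. It ran from 21849 to 23516 with a −log10 q of 365.8 in the deleted list and from 21850 to 23506 with 386.8 in the control list, the 3rd highest value of each whole list. Its other 3 peaks in each list, from 203 to 2576, 8535 to 11727 and 14642 to 17303 in the deleted list, matched control peaks from 203 to 2570, 8519 to 11721 and 14649 to 17291. GL456392.1 had 9.90 kb covered in the deleted list, against 9.87 kb in the control list, and 99.4% of the bases in either list were in both. On GL456390.1, 6 peaks in each list covered 12.3 kb and 12.4 kb with 96.8% of bases shared, and on GL456396.1 2 peaks in each covered 10.7 kb and 10.4 kb with 97.4% shared, among them the second widest control peak of any scaffold (5648 to 15498, 9.85 kb).

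GL456383.1 was covered over a larger part of its length than the 3 scaffolds above. Its peaks took up 68.4% of the stretch up to the last peak in the deleted list (8 peaks, 26.4 kb) and 70.5% in the control list (7 peaks, 27.2 kb). Scaffold lengths are not in the files, so these percentages are upper limits of the share of the scaffold. Its strongest peak ran from 27170 to 32625 in the deleted list and from 27168 to 32624 in the control list. GL456389.1 had 7 and 4 peaks over 9.06 kb and 9.22 kb, with 5 and 2 of them at a −log10 q of 10 or more. Of the strong deleted-list peaks there, those from 302 to 5362 and 6349 to 6627 overlapped a single control peak from 73 to 6539. Another, from 15790 to 17557, had a −log10 q of 10.3, and its control partner had 9.72. By covered length GL456393.1 differed most among the 7, with 37.8 kb in 7 deleted-list peaks and 26.5 kb in 10 control peaks. Its 2 strong peaks at the start of the scaffold covered 7.41 kb in the deleted list, against 7.30 kb in the control list. The difference lay in the weaker ones further along, where a deleted-list peak of 12.7 kb from 33799 to 46476 overlapped 2 control peaks.

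JH584304.1 held more marked sequence than any other scaffold, 71.8 kb in 20 peaks of the deleted list and 62.5 kb in 18 peaks of the control list. Of the bases in either list, 77.6% were in both. Its part beyond 62 kb carried the strong peaks and its first part wide peaks of low fold. A deleted-list peak of 15.3 kb from 222 to 15545 had a fold of 1.71 and a −log10 q of 5.63, and its control partner from 338 to 15470 had a fold of 1.52 and 3.85. The peak of highest fold on any scaffold was here, from 77854 to 81625 with a fold of 4.23 in the deleted list and from 77854 to 81624 with 4.58 in the control list. Peaks were also divided differently. The deleted-list peak from 19753 to 37084 overlapped 4 control peaks, while the control peak from 87717 to 91522 overlapped 2 deleted-list peaks and that from 92937 to 100733 overlapped 3.

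**Figure D2:**
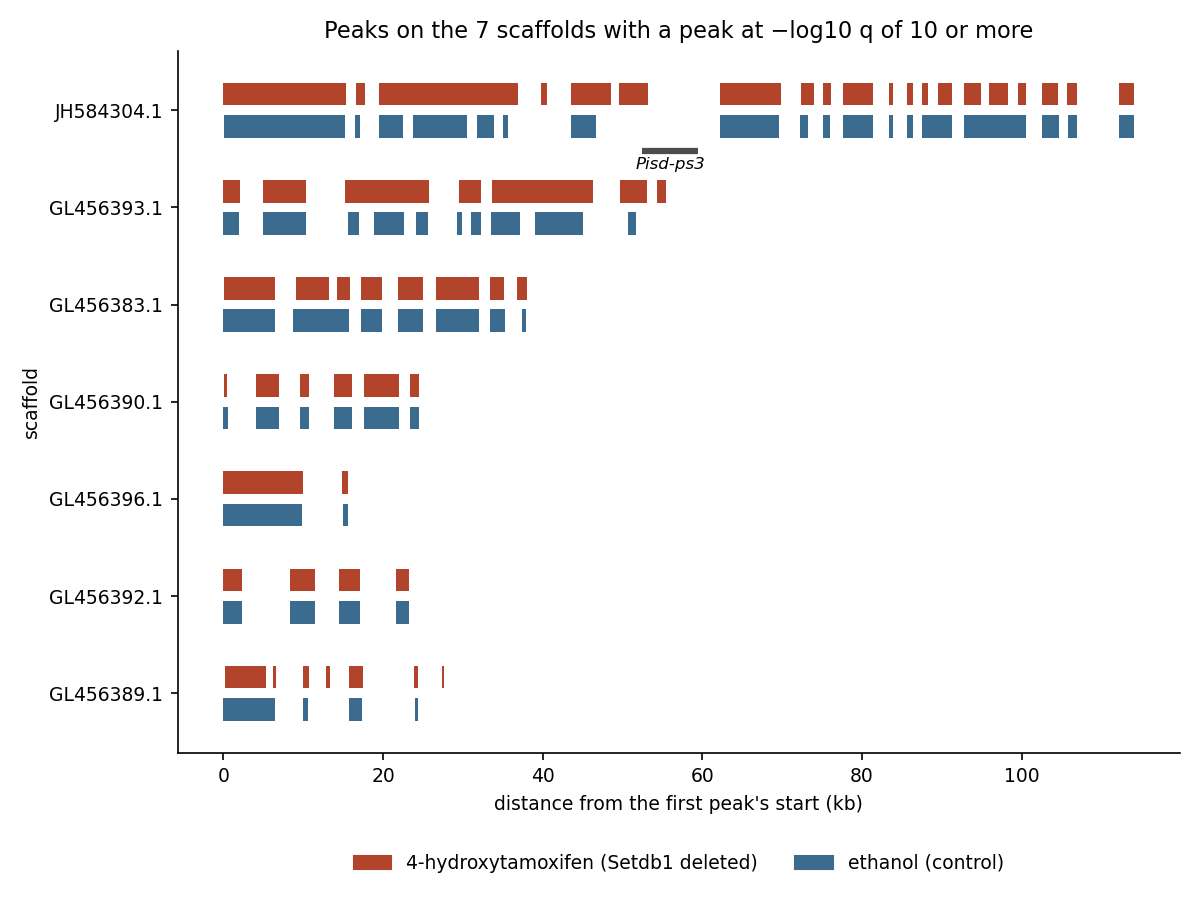
Peaks on the 7 scaffolds with a peak at −log10 q of 10 or more, as blocks along the distance from the first peak's start (kb), the deleted list above the control list on each scaffold, with Pisd-ps3 as a grey line. The blocks of GL456392.1, GL456390.1 and GL456396.1 match in both lists, and those of GL456393.1 are longer in the deleted list.

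Edges of strong peaks coincided far more closely than edges of weak ones. Joining the lists gave 207 separate regions on scaffolds. In 92 of them 1 deleted-list peak met 1 control peak, in 9 a single deleted-list peak met several control peaks, and in 9 several met a single control peak. In 65 there was a deleted-list peak only and in 32 a control peak only. Among the 23 pairs in which both peaks had a −log10 q of 10 or more, the median difference between the lists at an edge was 7 bp, and 34 of 46 edges differed by 20 bp or less. The other 69 pairs had a median of 196.5 bp, with 25 of 138 edges within 20 bp. On the main chromosomes the medians were 5.5 bp for 16 strong pairs and 395.5 bp for 47192 others, and 24 of 32 edges of those strong pairs were within 20 bp.

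Pooled over all scaffolds, peaks were shared between the lists more often than other peaks, and among weak peaks this held in the control list but not in the deleted list. In the deleted list 65 of 185 scaffold peaks (35.1%, Wilson interval 28.6 to 42.3%) had no control peak overlapping by at least 1 bp, where the share on the main chromosomes was 49.9%. In the control list 32 of 155 (20.6%, 15.0 to 27.7%) had no deleted-list peak, against 47%. Of the bases in either list, 55.9% were in both on scaffolds and 22.9% on the main chromosomes. The difference was wider on unplaced scaffolds, with 17% of deleted-list and 12.4% of control peaks without a partner and 68.5% of bases shared. On unlocalised scaffolds 53.8% of deleted-list peaks had none (Wilson interval 43.7 to 63.7%) and 34.5% of control peaks (23.6 to 47.3%). These intervals include the main-chromosome shares of 49.9% and 47%. Of the bases in either list there, 26.5% were shared. Every scaffold peak at a −log10 q of 10 or more had a partner in the other list, where the main-chromosome shares without one were 0% of 26 in the deleted list and 4.17% of 24 in the control list. From 3 to 10, 1 of 20 in each list had none, where the main-chromosome shares were 19.4% in the deleted list and 20.2% in the control list. The Wilson interval of the partnered share was 76.4 to 99.1% in each list, which includes the main-chromosome 80.6% and 79.8%. From 2 to 3, 13 of 46 in the deleted list had none, against 34.6%, and 11 of 46 in the control list, against 34.3%. Wilson intervals of the partnered share there were 57.5 to 82.7% and 62.1 to 86.1%, which include the main-chromosome 65.4% and 65.7%.

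Below a −log10 q of 2 the lists parted. There 51 of 86 scaffold peaks of the deleted list had no partner, where the main-chromosome share was 52.1%, and 20 of 62 of the control list, against 50.3%. The partnered share was 40.7% in the deleted list (Wilson interval 30.9 to 51.3%) and 67.7% in the control list (55.4 to 78.0%). Intervals cover counting error only, and neighbouring peaks are not independent. Wider peaks meet a partner more easily under a rule of 1 bp, and so do peaks where much of the sequence is covered. On JH584304.1 peaks took up 62.8% of the stretch up to the last peak in the deleted list and 54.7% in the control list. On GL456233.1 they took up 6.36% and 1.91%. The parts of width and of such coverage in these shares, and in the shared bases, were not tested.

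**Figure D3:**
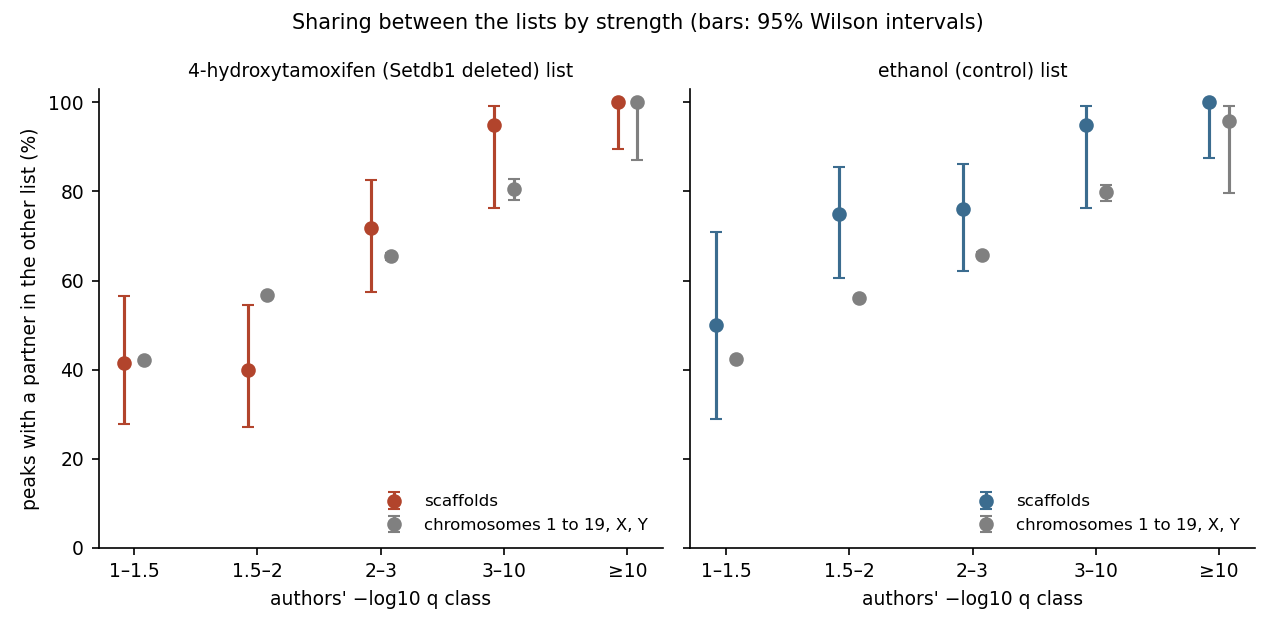
Percent of peaks with an overlapping peak in the other list (vertical) by class of the authors' −log10 q (horizontal), the deleted list on the left and the control list on the right, with 95% Wilson intervals, scaffolds in colour and main chromosomes in grey. On scaffolds the share is 100% in the highest class of both lists and 41.5% in the deleted list and 50% in the control list in the lowest.

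Taken scaffold by scaffold, 28 carried a peak, 25 of them in both lists. The deleted list covered more on 17 and the control list on 11. Among the 25, 14 were within 1.5 times of each other in covered length, 7 were higher in the deleted list by more and 4 lower. The differences in favour of the deleted list were widest on GL456233.1 (20.5 kb and 6.14 kb in the control list), GL456212.1 (24.6 kb and 12.8 kb) and GL456393.1. Those in favour of the control list were widest on GL456216.1 (1.17 kb in 3 deleted-list peaks and 4.85 kb in 7 control peaks), GL456359.1 (4.39 kb and 7.86 kb) and GL456370.1, which had no deleted-list peak and 1 control peak of 2.96 kb. GL456385.1 had 3 peaks over 2.84 kb in the deleted list and none in the control list, all with a −log10 q under 2. GL456366.1 had 1 control peak of 1.21 kb and no deleted-list peak.

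Several unplaced scaffolds without a strong peak were still covered over much of their length. GL456387.1 was covered over 65.4% of the stretch up to its last peak in the deleted list (16.0 kb) and 53.2% in the control list (13.0 kb). GL456381.1 stood at 64.8% (15.1 kb) and 36.7% (8.53 kb), and 99.9% of its control bases lay inside deleted-list peaks. GL456239.1 had 6 peaks over 19.8 kb in the deleted list, with a median width of 1838 bp. In the control list it had 11 over 17.6 kb, with a median width of 1070 bp. GL456368.1 had 2 peaks in each list, over 11.2 kb and 10.9 kb. Together the 13 unplaced scaffolds without a strong peak had 40 peaks over 96.3 kb in the deleted list and 46 over 83.3 kb in the control list.

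**Figure D4:**
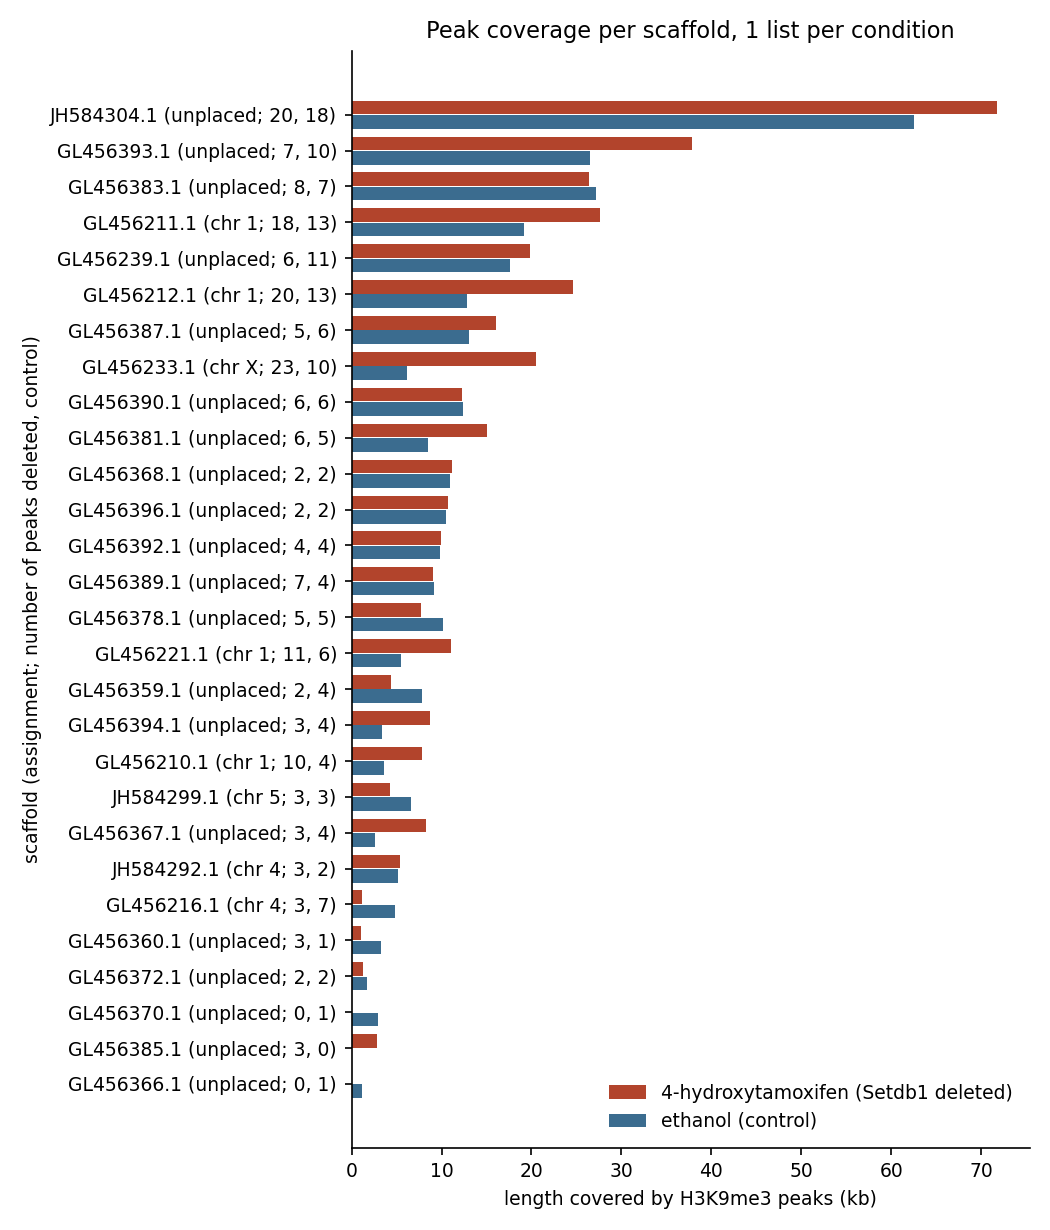
Length covered by peaks (horizontal, kb) on each of the 28 scaffolds, the deleted list as the upper bar and the control list as the lower bar, 1 list each; labels give the assigned chromosome and the number of peaks in the deleted and the control list. JH584304.1 leads with 71.8 kb and 62.5 kb, and GL456233.1 shows the widest gap, 20.5 kb and 6.14 kb.

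With peaks of every strength counted, the surplus of deleted-list peaks in number lay on the unlocalised scaffolds. The deposited lists name a scaffold only by its identifier, and the chromosomes given here follow the names of mm10 scaffolds in common use, not the files. The 8 unlocalised scaffolds had 91 peaks over 102 kb in the deleted list and 58 over 63.8 kb in the control list, and at a −log10 q of 2 or more 26 in each list. The 20 unplaced ones had 94 peaks over 274 kb and 97 over 241 kb. At a −log10 q of 2 or more these kept 73 peaks over 252 kb in the deleted list and 67 over 191 kb in the control list. At that limit the surplus in number therefore lay on the unplaced scaffolds. Of the 65 deleted-list peaks without a control partner, 28 were on the 4 scaffolds of chromosome 1 and 18 on the scaffold of chromosome X; as shares of the peaks there, these are given below beside those of the 2 chromosomes.

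GL456233.1, assigned to chromosome X, had 23 peaks in the deleted list and 10 in the control list, with a covered-length ratio of 3.33. Chromosome X itself, without the scaffold, had a ratio of 2.26. Of the scaffold's peaks, 18 in the deleted list and 5 in the control list had no partner, a share of 78.3% and 50%, beside 80.5% and 60.5% on chromosome X. All peaks of GL456233.1 were weak, at a −log10 q of 2.16 or less in the deleted list and 2.58 or less in the control list. At 2 or more, 2 deleted-list peaks over 2.24 kb and 5 control peaks over 3.12 kb remained, which turns the direction.

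The 4 scaffolds assigned to chromosome 1, GL456210.1, GL456211.1, GL456212.1 and GL456221.1, each had more peaks in the deleted list. Together they held 59 peaks over 71.0 kb in the deleted list and 36 over 41.0 kb in the control list, a ratio of 1.73. Chromosome 1 had a ratio of 0.925. Of the bases in either list, 28.6% were in both. The share of peaks without a partner was 47.5% in the deleted list, close to the 47.3% of chromosome 1, and 22.2% in the control list, against 48.4%. These 4 scaffolds were put together after their values were seen. At a −log10 q of 2 or more they held 22 peaks over 31.1 kb in the deleted list and 17 over 20.9 kb in the control list, and at 3 or more 3 peaks in each. The strongest was on GL456211.1, with a −log10 q of 4.60 in the deleted list from 119220 to 121864, overlapping a control peak from 119943 to 121865.

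Of the 2 scaffolds assigned to chromosome 4, GL456216.1 had less covered in the deleted list, as given above, while JH584292.1 had 3 peaks over 5.36 kb in the deleted list and 2 over 5.13 kb in the control list. Together their ratio was 0.654, beside 1.16 for chromosome 4, and the lower value came from GL456216.1. JH584299.1, of chromosome 5, had 3 peaks in each list over 4.25 kb and 6.61 kb. At a −log10 q of 2 or more GL456216.1 and JH584292.1 each kept 1 peak per list, and JH584299.1 kept 0 in the deleted list and 2 in the control list.

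**Figure D5:**
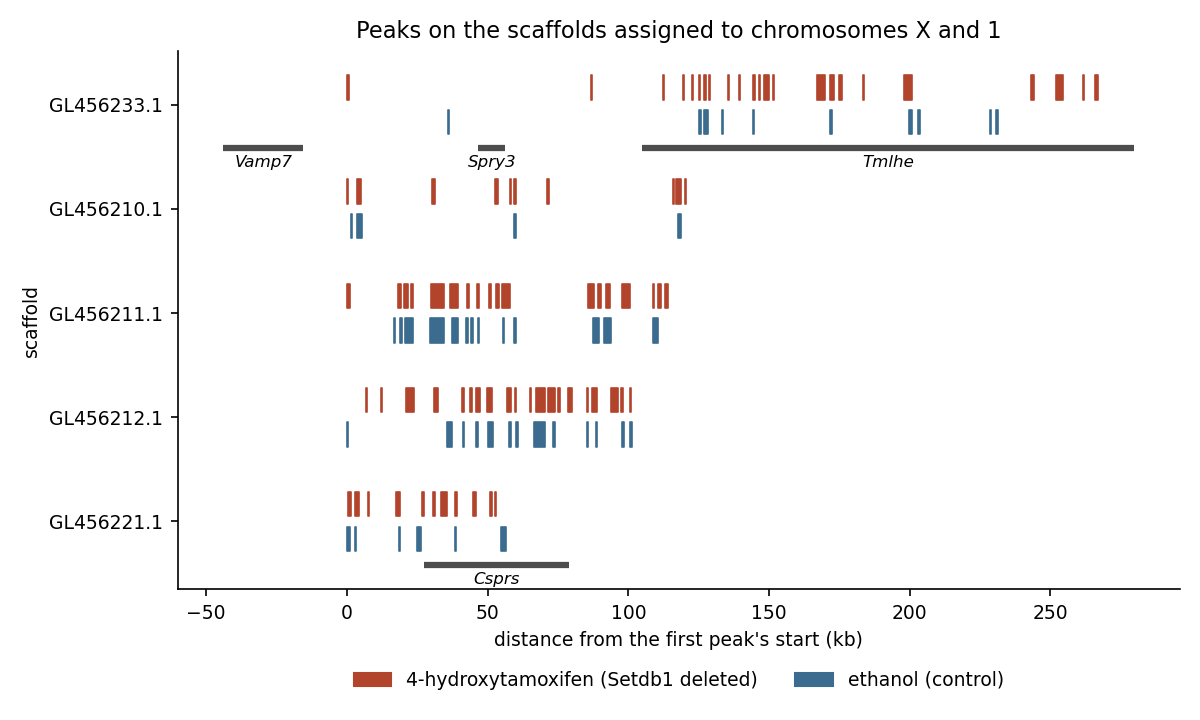
Peaks on the scaffold assigned to chromosome X (top) and the 4 assigned to chromosome 1, along the distance from the first peak's start (kb), the deleted list above the control list, with genes as grey lines and peaks outlined so that narrow ones stay visible. GL456233.1 has 23 deleted-list and 10 control peaks, most of them inside Tmlhe. This gene runs from 159605 to 334431, past the end of the last peak at 321477. Peaks inside it were not compared with its share of the scaffold, whose length is unknown.

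The number of genes on these scaffolds was not counted. The RefSeq table for GRCm38.p6 holds 17 genes of unknown chromosome, of which 13 are pseudogenes, 4 are long noncoding RNAs and 0 are protein-coding. It gives gene positions but no scaffold names. The 8 named genes below were put on their scaffolds from knowledge of the assembly, and the others were not placed. Windows were the gene and 5 kb on both sides, cut at the scaffold's first base but not at its end, since lengths are not in the files.

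Tmlhe, which encodes the first enzyme of carnitine synthesis, took up much of the marked part of GL456233.1 (159605 to 334431). Its window held 21 peaks over 19.5 kb (10.5%) in the deleted list and 9 over 5.84 kb (3.16%) in the control list. Of these, 1.21% and 1.69% of the window remained at a −log10 q of 2 or more, so the direction turned there too. Vamp7, a vesicle fusion gene (10737 to 39191), and Spry3, a gene of the Sprouty family of growth factor signalling inhibitors (101352 to 110912), lie on the same scaffold and had windows free of peaks in both lists.

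Csprs, on GL456221.1 from 111558 to 163011, had 11.6% of its window covered by 7 peaks in the deleted list and 6.18% by 3 in the control list, and 2.71% and 0.928% at a −log10 q of 2 or more. Dhrsx, a gene of the short-chain dehydrogenase family on GL456216.1 (14351 to 36213), had no deleted-list peak in its window and 2 control peaks over 0.485 kb (1.52%). Vmn2r122, a pheromone receptor gene on JH584292.1 (3536 to 11935), was covered in both lists, over 31.7% of its window by 3 peaks in the deleted list and 30.3% by 2 in the control list. At a −log10 q of 2 or more this became 13.0% in the deleted list and 17.8% in the control list, and neither Dhrsx peak remained. Cd99, which encodes a cell adhesion molecule, was placed on JH584295.1, where neither list had a peak.

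Pisd-ps3, a transcribed pseudogene of the phosphatidylserine decarboxylase gene Pisd on JH584304.1 (52674 to 59689), stood in the gap between the wide and the strong peaks of that scaffold. Its window was covered over 40.7% by 3 peaks in the deleted list and 13.1% by 1 in the control list, but at a −log10 q of 3 or more the values were 13.3% and 13.1%. The gene body was covered over 10.3% in the deleted list and held no control peak. The deleted-list peak that reached into it ran from 49790 to 53395 with a fold of 1.64 and a −log10 q of 2.44, and no control peak overlapped it.

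Peaks without a partner were of modest strength even where their fold was highest. In the deleted list those were on GL456211.1 from 180332 to 182975 (fold 3.40, −log10 q 3.06), GL456210.1 from 55059 to 56035 (3.35, 2.76) and GL456360.1 from 11642 to 12053 (3.19, 2.45). In the control list they were on GL456211.1 from 142027 to 142581 (3.38, 3.16), GL456212.1 from 50634 to 50972 (3.27, 2.96) and GL456233.1 from 283136 to 283410 (3.17, 2.58). Of these 6 peaks, 5 were on unlocalised scaffolds, which held 49 of all 65 deleted-list and 20 of all 32 control peaks without a partner. Folds and −log10 q are those of the authors' peak caller and describe each list by itself.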

How the data were processed

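The authors deposited 2 lists of broad peaks, 1 per condition, in broadPeak format. Per the submitters' processing notes, BWA 0.7.17-r1188, MACS2 and ChIPseeker 1.30.3 were used with build mm10. MACS2 settings, use of the 2 input libraries, pooling and the handling of reads that align to several places are not given in the sources used here, and the last bears on scaffolds most. Columns deposited beside each position hold a score, the authors' fold (a linear ratio) and the −log10 of a p-value and of a q-value, and fold and −log10 q were used to describe or filter peaks within a list. Coordinates, deposited from 0, are given from 1. The file names carry another replicate number than the labels, so lists were assigned by condition.

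Overlap needed 1 bp (Python 3.11.15 with numpy 2.4.6, pandas 2.3.3, scipy 1.17.1 and matplotlib 3.10.9; bedtools 2.31.1 as a check), and was checked on simulated lists. Intervals are 95% Wilson intervals. Named were the 10 scaffolds with the most covered bases, the 3 with the widest difference in each direction, those with 3 or more peaks in 1 list and none in the other, the widest peaks and those of highest fold, and genes placed on a scaffold. Further scaffolds, the strongest peaks and the limit of 10 were named after their values were seen. Members and lists were chosen with earlier results of these data known. The planned naming of all annotated scaffold genes could not be done, since the RefSeq table (GRCm38.p6) names no scaffold.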

Additional observations from a re-analysis of the deposited data

How the results depend on the processing

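Under the alternatives tried, values of the 5 main quantities stayed within 1.5 times in 29 cases, moved further in 23 and turned direction in 2. For covered length this limit concerns the ratio itself, not its log2. The log2 ratio, 0.30 in the main setting, was thus counted as staying at 0.70 at or above the median fold. The same holds for 0.68 on unlocalised scaffolds alone and 0.18 on unplaced ones alone. For single scaffolds and genes 78 stayed and 82 moved. Number is deleted minus control peaks; the shares without a partner are given for the deleted and then the control list; the cause was not tested, except that stricter limits leave fewer peaks and joining makes fewer, longer ones. At −log10 q of 2 or more the number was 6 and the control share without a partner 30.1%. At 3 or more the number was 6 and the shares 13.2% and 12.8%. At 10 or more, a setting chosen after seeing the data, the number was 6, the log2 ratio of covered length turned to -0.0066, the shares were 12.1% and 3.70%, and 85.5% of bases in either list were shared. At or above the median fold the shares were 58.9% and 40.5% and shared bases 33.3%. With peaks joined within 5 kb the number was 4. On unplaced scaffolds alone the number turned to -3 and the shares were 17% and 12.4%, and on unlocalised ones alone the shares were 53.8% and 34.5% and shared bases 26.5%. Without GL456233.1, a setting also chosen after seeing the data, the number was 17. Requiring 50% of the peak gave shares of 49.7% and 30.3%, and allowing 5 kb gave 13.0% and 6.45%. The main values were 30 more peaks, a log2 ratio of 0.30, shares of 35.1% and 20.6%, and 55.9% of bases shared. No paired analysis was possible because a condition is represented by 1 list, which also means that none could be left out. Sequencing depth and scaffold lengths are unknown.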
